A study of Mus musculus with 8 samples.

Results

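The genes of MHC class II antigen presentation were followed in bulk RNA sequencing of the aorta from male Marfan mice. They are the 10 symbols H2-Aa, H2-Ab1, H2-Eb1, H2-DMa, H2-DMb1, H2-DMb2, H2-Oa, H2-Ob, Cd74 and Ciita, taken by exact symbol from the 25526 genes listed in each count table, and all 10 were found. Every mouse carried the Fbn1C1041G/+ genotype, a missense allele of fibrillin-1 on one chromosome that models Marfan syndrome. One group of 4 libraries came from mice aged 12 weeks, when the aneurysms grow, and the other group of 4 from mice aged 2 years, when growth had arrested, per the series' design text. No library without the allele entered the comparison, so age in unmutated mice was not measured. The sources used here name neither the strain nor the segment of aorta that was taken. The design text gives n = 4 for each age without saying that each library is a different mouse, so p-values measure the spread between these libraries.

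Class II molecules display peptides from engulfed proteins to CD4 T cells. An alpha and a beta chain pair in the endoplasmic reticulum (H2-Aa with H2-Ab1, and an E alpha chain with H2-Eb1), and the invariant chain Cd74 fills their groove and guides them to endosomes. There Cd74 is trimmed down to the CLIP peptide, which H2-DM (H2-DMa with H2-DMb1 or H2-DMb2) exchanges for other peptides. H2-DO (H2-Oa with H2-Ob) restrains H2-DM and is known mainly from B cells and some dendritic cells. Ciita is the coactivator that switches the whole set on, without binding DNA itself. In a vessel wall the usual carriers of class II are macrophages, dendritic cells and B cells, and interferon-gamma can induce it in other cells.

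Ciita is recruited by factors bound to a shared promoter layout, an X box (bound by the RFX complex and CREB) followed by a Y box (bound by NF-Y), so the promoter letters of the members are shown first. Entries of 7 of the 10 members in RefSeq's promoter table for build GRCm38.p6 were searched, and none was used for H2-Ab1, Cd74 and Ciita. The windows below run from 130 to 21 bases before the annotated start of transcription, 5′ to 3′ on the strand of the gene, and all lie on chromosome 17. Capitals mark AACNNATG, the X box core as searched, and ATTGG, the Y box core, on either strand, so that CCAAT is also in capitals. The first was chosen after these promoters had been read.
H2-Aa (chr17:34287844-34287953, minus strand): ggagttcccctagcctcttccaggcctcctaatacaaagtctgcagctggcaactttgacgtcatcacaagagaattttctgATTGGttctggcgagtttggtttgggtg
H2-Eb1 (chr17:34305737-34305846, plus strand): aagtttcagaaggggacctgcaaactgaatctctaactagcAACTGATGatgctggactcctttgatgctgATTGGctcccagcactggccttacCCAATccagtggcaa
H2-DMb1 (chr17:34153061-34153170, plus strand): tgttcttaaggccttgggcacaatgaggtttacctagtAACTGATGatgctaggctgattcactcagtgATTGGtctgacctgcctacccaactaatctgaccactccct
H2-DMb2 (chr17:34145119-34145228, plus strand): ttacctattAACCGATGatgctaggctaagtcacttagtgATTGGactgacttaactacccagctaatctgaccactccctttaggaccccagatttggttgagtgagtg
H2-Oa (chr17:34092249-34092358, plus strand): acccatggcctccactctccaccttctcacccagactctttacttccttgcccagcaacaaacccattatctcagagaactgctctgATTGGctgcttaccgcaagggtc
H2-Ob (chr17:34238775-34238884, plus strand): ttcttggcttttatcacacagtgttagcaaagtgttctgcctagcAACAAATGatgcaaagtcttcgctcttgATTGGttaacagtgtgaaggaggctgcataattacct
Within the 250 bases before the start, ATTGG stood in 7 of 7 members, for H2-DMa in 1 of its 2 entries, 198 bases before the start, and so outside the stretch shown. It stood in 33.8% of the 32851 windows of that length in the table. AACNNATG stood in H2-Eb1, H2-DMb1, H2-DMb2 and H2-Ob, 4 of 7, against 7.71% of all windows. In these 4 promoters the X box core came first and ATTGG followed after 22, 23, 23 and 20 bases. That order with 15 to 50 bases between the cores, without overlap, stood in 0.271% of all windows. H2-Aa and H2-Oa held the Y box core alone among these letters, and other forms of the X box were not searched for. Since AACNNATG was chosen on these same promoters, its counts beside the shares over all windows are a description and no test. A match does not show that a factor binds there.

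Library totals ranged from 16251986 to 33880690 counts, and 13978 genes passed the filter on low counts, all 10 members among them. Of the members H2-Oa passed only through its 2-year libraries. Over all those genes, 25.8% rose with age and 26.2% fell, by edgeR's quasi-likelihood test with a Benjamini-Hochberg adjusted p below 0.05 over all genes. Of all genes tested, 24.3% had every 2-year value above every 12-week value. Fbn1 had counts in all 8 libraries, although counts per gene do not separate the mutant from the normal allele; its mean was 822.4 ± 71.5 CPM at 12 weeks and 483.7 ± 103.6 CPM at 2 years (SD, n = 4). CPM stands for counts per 1e6 counts of the scaled library size. The libraries of the 2 ages also differed in their dependence on transcript length. The slope of log2 CPM on log2 length was 0.127 to 0.262 at 12 weeks and -0.316 to -0.108 at 2 years, and its part in the results was not tested. A fit with an offset that removes each library's trend on length and GC content is therefore given as a second value, called the length-adjusted value. In that fit 23.0% of all genes were called higher and 27.8% lower, and Fbn1 moved from -0.77 to 0.16 in log2 fold change.

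All 10 class II genes rose between 12 weeks and 2 years, and in none did the libraries of the 2 ages overlap. Their median log2 fold change was 3.10, against -0.01 over all genes tested, and 2.74 length-adjusted, against -0.06. In that fit too all 10 were called higher. Together they took 0.0499% ± 0.00833 of all counts at 12 weeks and 0.476% ± 0.0682 at 2 years (SD, n = 4). The chains that form the peptide groove rose most, along with H2-Oa and H2-DMb2, and the coactivator Ciita rose least. Length-adjusted, Ciita was at 2.14, close to H2-DMb1 at 2.23 and H2-DMa at 2.24. Bulk RNA does not separate more cells of a type from more RNA per cell, so the values below hold for the tissue as taken.

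**Figure D1:**
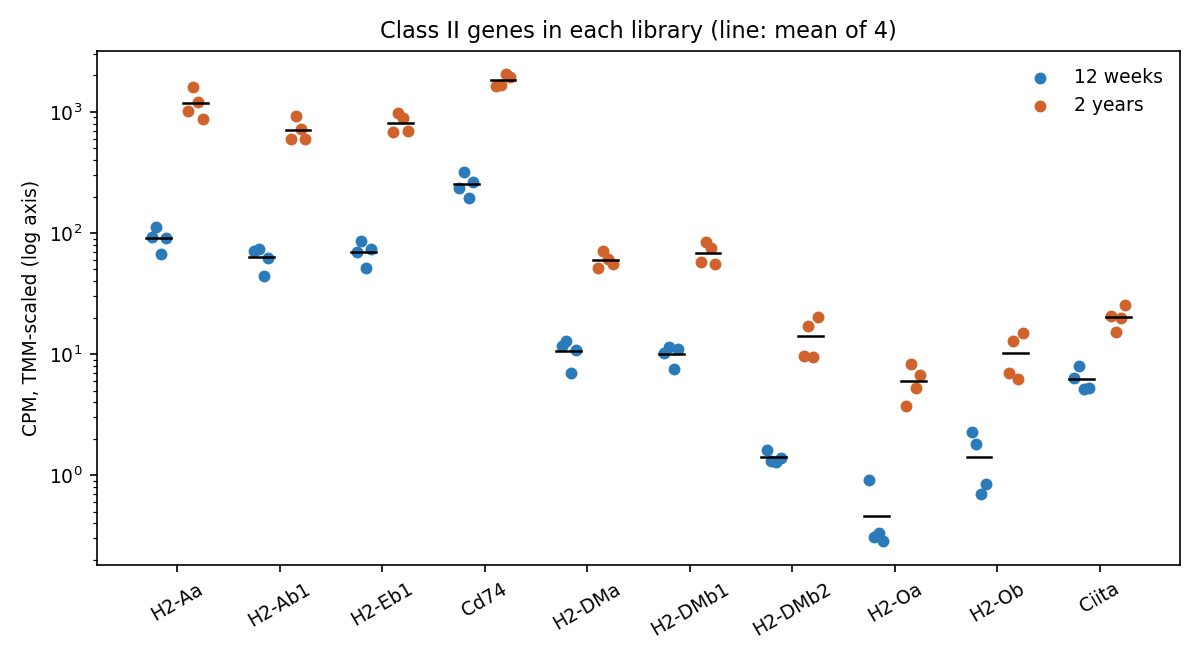
Level of each class II gene in every library, in CPM on a log axis; blue points are the 4 libraries at 12 weeks, orange points the 4 at 2 years, and lines the group means. In each gene all orange points lie above all blue points, from Cd74 at 1621.5 to 2051.7 CPM at 2 years down to H2-Oa at 3.74 to 8.23 CPM.

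H2-Aa, the alpha chain of the A molecule, stood at 93.5, 111.8, 67.2 and 91.6 CPM in 12 weeks replicates 1 to 4 and at 1017.1, 1615.6, 1211.9 and 880.9 CPM in 2 years replicates 1 to 4. The lowest old library was far above the highest young one. The mean went from 91 ± 18.3 to 1181.4 ± 319.8 CPM (SD, n = 4), 13-fold, or 3.70 in log2 with an SE of 0.24 (adjusted p = 1.26e-06 by edgeR). Length-adjusted it was 2.98, the only member that the adjustment moved by more than 1.5 times.

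H2-Ab1, the partner beta chain, was at 71.6, 74.3, 44.2 and 61.6 CPM at 12 weeks and at 592.4, 922.4, 727.9 and 597.9 CPM at 2 years. It followed H2-Aa closely, with replicate 3 lowest among the young libraries and replicate 2 highest among the old in both genes. Its mean rose from 62.9 ± 13.6 to 710.2 ± 154.7 CPM, 11.3-fold (3.50 in log2, with an SE of 0.22 and adjusted p = 1.19e-06 by edgeR).

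H2-Eb1, the beta chain of the E molecule, was at 69.5, 85.2, 51.5 and 74 CPM at 12 weeks and at 678.1, 986.6, 883 and 694.6 CPM at 2 years. Again replicate 3 was lowest among the young and replicate 2 highest among the old libraries. The rise was 11.6-fold (3.53 in log2, with an SE of 0.20 and adjusted p = 7.35e-07 by edgeR). Its alpha partner H2-Ea, which RefSeq lists as a pseudogene, had 0 counts in all 8 libraries. A count of 0 allows up to 0.0856 to 0.195 CPM, depending on the library (3 counts per library, counting error only).

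Cd74, the invariant chain, had the highest mean CPM of the members at both ages, and the highest mean per kilobase of transcript. It stood at 234.7, 316.8, 195.9 and 265.3 CPM at 12 weeks and at 1621.5, 1675.3, 2051.7 and 1931.3 CPM at 2 years. The old libraries lay close together, with a coefficient of variation of 11.3%, the smallest of the members at that age. The mean rose from 253.2 ± 51.1 to 1819.9 ± 205.3 CPM, 7.19-fold (2.85 in log2, with an SE of 0.18 and adjusted p = 1.44e-06 by edgeR).

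H2-DMa, the alpha chain of the peptide exchanger, was at 11.6, 12.7, 6.95 and 10.9 CPM at 12 weeks and at 51, 71.4, 61.3 and 55.7 CPM at 2 years. It rose 5.68-fold (2.51 in log2, with an SE of 0.19 and adjusted p = 3.16e-06 by edgeR). Its exons overlap those of Brd2 on the other strand over 360 of 3448 bases in the GENCODE M21 annotation, and the handling of strand is not given in the sources used here.

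H2-DMb1, its main beta chain, was at 10.3, 11.4, 7.47 and 11.1 CPM at 12 weeks and at 57.6, 83.5, 75.3 and 55.4 CPM at 2 years, 6.74-fold higher (2.75 in log2, with an SE of 0.19 and adjusted p = 1.69e-06 by edgeR). H2-DMb2, a near copy beside it, was at 1.62, 1.31, 1.29 and 1.38 CPM at 12 weeks and at 9.59, 17.1, 9.43 and 20.3 CPM at 2 years. The young libraries agreed closely in H2-DMb2, while the old ones split into a lower pair, replicates 1 and 3, and a higher pair, replicates 2 and 4. It rose 10.1-fold (3.34 in log2, with an SE of 0.28 and adjusted p = 5.75e-06 by edgeR). The 2 transcripts are identical at 1003 of 1045 aligned bases (96%), and 27.2% of the 50-base stretches of the H2-DMb1 transcript also occur in H2-DMb2, so the split of reads between them is uncertain. Their sum rose by 2.84 in log2 with an SE of 0.17 (adjusted p = 9.15e-07 by edgeR). Of 1434 such stretches of the H2-DMb2 transcript, 423 occur in other genes, 361 of them in H2-DMb1. The sum therefore does not cover every shared stretch. H2-DMb2 made up 10.3% to 14.8% of that sum at 12 weeks and 14.3%, 17%, 11.1% and 26.8% in 2 years replicates 1 to 4.

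H2-Oa and H2-Ob, the chains of the H2-DM inhibitor, were at low levels at 12 weeks. H2-Oa was at 0.917, 0.308, 0.333 and 0.284 CPM at 12 weeks, from 21, 8, 9 and 7 counts, and at 3.74, 8.23, 5.27 and 6.7 CPM at 2 years. Replicate 1 stood apart among the young libraries. The rise was 13-fold (3.70 in log2, with an SE of 0.42 and adjusted p = 4.40e-05 by edgeR). Part of its transcript, 321 of 1407 exon bases, overlaps BC051537 on the other strand.

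H2-Ob was at 2.27, 1.81, 0.703 and 0.852 CPM at 12 weeks and at 6.99, 12.8, 6.18 and 14.8 CPM at 2 years. Each age held 2 lower and 2 higher libraries, and the highest young library was still below the lowest old one. It rose 7.26-fold (2.86 in log2, with an SE of 0.42 and adjusted p = 0.000268 by edgeR), the largest adjusted p among the members. The dendritic cell genes Flt3, Xcr1 and Clec9a, named here after their values were seen, were also higher in 12 weeks replicates 1 and 2 than in 3 and 4. Clec9a, for instance, was at 4.89, 4.2, 0.629 and 0.973 CPM. Of the other listed dendritic cell markers, Itgae, Batf3, Ccr7 and Itgax had the same split. Cd209a, Clec10a, Fscn1, Zbtb46 and Siglech did not. Among the old libraries Flt3 and Xcr1 were higher in replicates 2 and 4, as H2-Ob was. Clec9a was not, at 3.31, 4.82, 3.71 and 3.02 CPM in replicates 1 to 4. The part of these cells in the H2-Ob values was not tested.

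Ciita, the coactivator of the set, was at 6.38, 8.01, 5.18 and 5.27 CPM at 12 weeks and at 20.7, 15.1, 19.9 and 25.6 CPM at 2 years. Replicate 2 had the highest value among the young libraries and the lowest among the old. Ciita rose 3.27-fold (1.71 in log2, with an SE of 0.20 and adjusted p = 5.31e-05 by edgeR), the smallest rise of the members. It has the longest transcript of the set, 6007 bases, and was the only member with a larger length-adjusted value, 2.14. Its exons overlap those of Dexi on the other strand over 329 of 9535 bases.

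**Figure D2:**
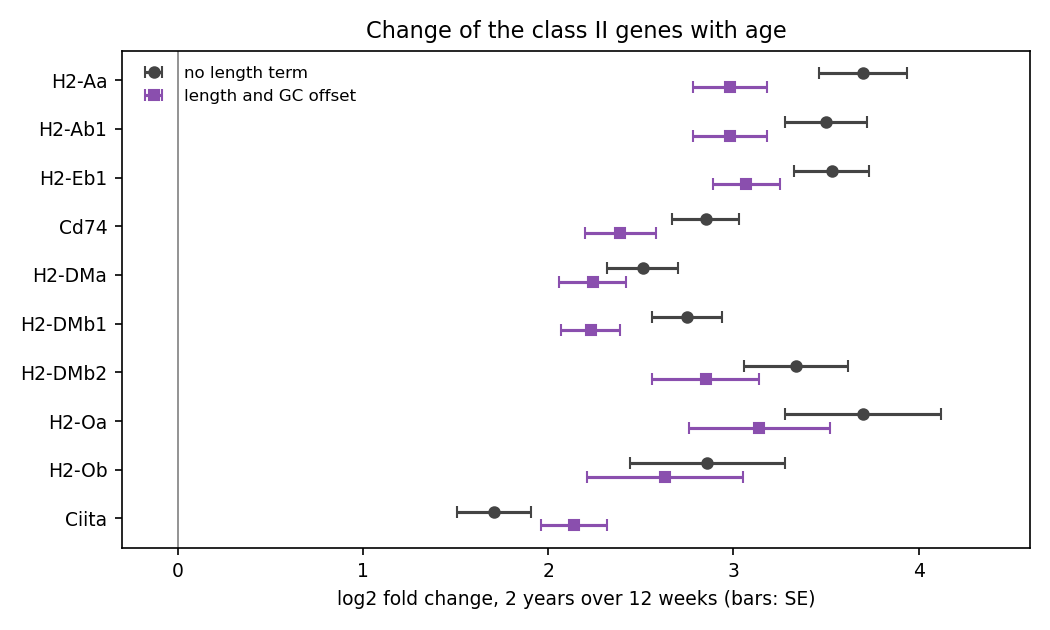
Log2 fold change, 2 years over 12 weeks, of each class II gene with its SE; circles are the fit without a length term and squares the fit with the length and GC offset. Every value is above 0 in both fits, from 1.71 (Ciita) to 3.70 (H2-Aa and H2-Oa) without the offset and from 2.14 to 3.14 with it.

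Levels were compared between genes as CPM per kilobase of transcript. At 12 weeks Cd74 led at 179.6, followed by H2-Aa at 80.7, H2-Ab1 at 51.9 and H2-Eb1 at 42 CPM per kilobase. H2-DMb1 and H2-DMa followed at 7.17 and 5.26, then Ciita at 1.03, H2-DMb2 at 0.944, H2-Ob at 0.528 and H2-Oa at 0.423. Cd74 was above H2-Aa in every pairing of young libraries, with 138.9 to 224.7 against 59.6 to 99.1 CPM per kilobase. At 2 years the 2 genes overlapped, with 1150 to 1455.1 for Cd74 against 781 to 1432.3 for H2-Aa. H2-Ab1 (488.8 to 761.1) and H2-Eb1 (406.3 to 591.1) came next and also overlapped, as did H2-Oa, H2-Ob and Ciita at the low end, with means of 5.5, 3.81 and 3.38. H2-DMb1 lay above H2-DMa in every pairing of old libraries, at 39.5 to 59.5 against 25.4 to 35.6. In CPM, before division by length, these 2 genes overlapped at 2 years, at 55.4 to 83.5 against 51 to 71.4.

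Within an age the members did not all vary together. After the mean of each age was subtracted, H2-Aa, H2-Ab1, H2-Eb1, H2-DMa and H2-DMb1 correlated with each other at r = 0.87 to 0.98 over the 8 libraries. H2-DMb2, H2-Oa and H2-Ob correlated among themselves at 0.64 to 0.72 and with the first set at 0.00 to 0.62. Ciita lay at -0.21 to 0.16 with the first set and at 0.61 with Cd74, which was at 0.42 to 0.68 with that set. These coefficients describe 8 points that share library depth and scaling. They were taken without the length and GC offset and were not computed with it. The offset moved the deviation of Ciita in 2 years replicate 2 from -0.40 to -0.19, so its low coefficients with the first set may depend on the length trend. The old libraries show the difference: replicate 2 was highest for H2-Aa, H2-Ab1, H2-Eb1, H2-DMa, H2-DMb1 and H2-Oa, whereas replicate 4 was highest for H2-DMb2, H2-Ob and Ciita. Replicate 2 had the highest summed level of red blood cell markers among the old libraries, 5772.4 CPM against 1260.9 to 1803.6 CPM. Its sum of 12 dendritic cell markers was also the highest, 188.5 CPM against 146.9 to 162.7 CPM. The sum of 12 macrophage markers was highest in replicate 3, at 2877 CPM against 2578 CPM in replicate 2. Replicate 4 had the highest summed level of 10 B cell markers, 136.8 CPM against 30.6, 52.5 and 45.1 CPM in replicates 1, 2 and 3. The part of blood and of dendritic cells in the values of replicate 2, and of B cells in those of replicate 4, was not tested.

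**Figure D3:**
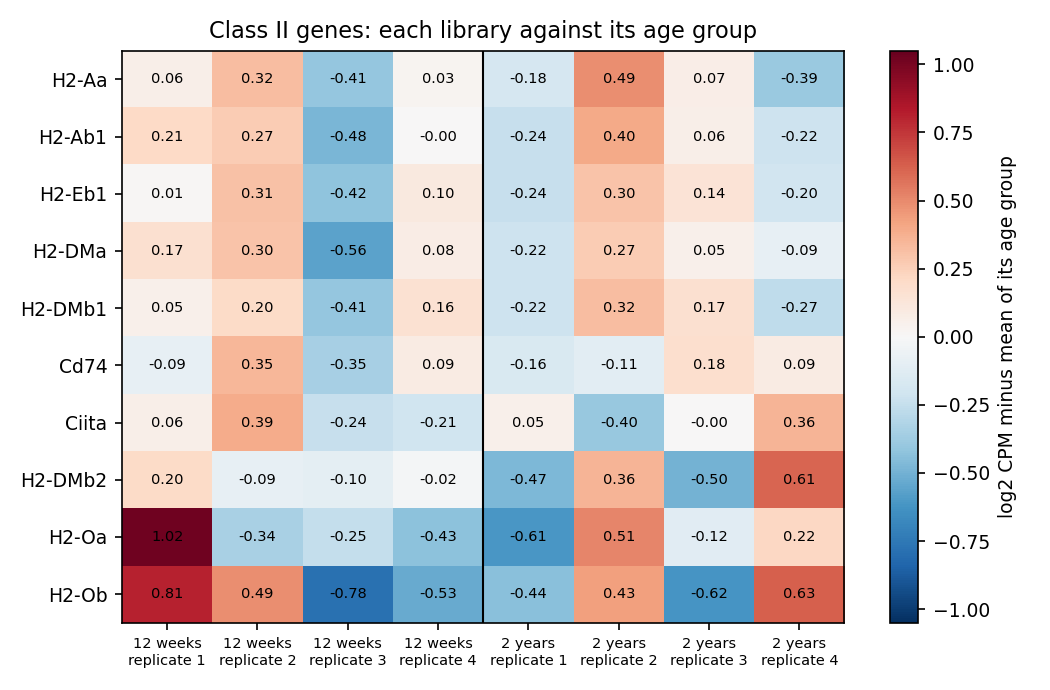
Deviation of each class II gene (rows) in each library (columns) from the mean of its own age group, in log2 CPM; red is above and blue below the mean, and the black line separates the ages. The first 5 rows share their signs in nearly all columns, and in 2 years replicate 2 Ciita is at -0.40 where H2-Aa is at 0.49. With the length and GC offset, not drawn, these 2 values are -0.19 and 0.44.

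The tested genes outside the set whose deviations were most like the mean of the members were Kif24 (r = 0.98), Gpr160 (0.98), S100a4 (0.97), Tsr2 (0.97) and Btla (0.96), again over 8 libraries with each age centred. Their change with age was not alike. Btla, an inhibitory receptor of lymphocytes, rose from 1.64 ± 0.841 to 8.38 ± 2.69 CPM (2.35 in log2, with an SE of 0.37 and adjusted p = 0.000378 by edgeR). Gpr160 rose by 1.60 on the log2 scale. Kif24 had a log2 fold change of 0.28 (edgeR adjusted p = 0.546). S100a4 had 0.95, but -0.25 length-adjusted, and Tsr2 0.36. These genes were picked for the highest r among the 13978 genes tested, members aside, on only 8 libraries. How high r would reach by such picking alone was not tested. Kif24 was also sparse, at 0.444 to 1.15 CPM. No conclusion is therefore drawn on likeness within an age and change between ages.

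Ratios within a library need no scaling factor and show whether members changed in proportion. For 7 ratios an exact two-sided permutation test over the 70 assignments of libraries was used, in which 0.0286 is the smallest possible p, and 0.05 the smallest value found after adjustment over the 7. No ratio therefore had an adjusted p below 0.05. The H2-Ab1 to Ciita ratio was 8.52 to 11.6 at 12 weeks and 23.4 to 61.2 at 2 years, without overlap. The mean log2 ratio differed by 1.80, or 3.47-fold (exact permutation p = 0.0286, adjusted 0.05), and by 0.84 with the length and GC offset. Among the old libraries replicate 2 was highest, at 61.2, followed by replicate 3 at 36.5, replicate 1 at 28.7 and replicate 4 at 23.4.

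The ratios of H2-Ab1 to 2 genes of the carrying cells did not overlap between the ages either. Relative to Ptprc, the CD45 antigen of all white blood cells, it was at 1.97 to 2.74 at 12 weeks and at 4.66 to 11.6 at 2 years, a difference of 1.61 in log2 (exact permutation p = 0.0286, adjusted 0.05). Ptprc itself rose from 26.3 ± 4.97 to 99.3 ± 27.8 CPM (SD, n = 4), or by 1.92 in log2. Relative to Csf1r, the receptor for macrophage colony-stimulating factor, H2-Ab1 was at 0.386 to 0.655 and then at 1.58 to 2.47, a difference of 2.01 (exact permutation p = 0.0286, adjusted 0.05). With the offset these differences were 0.92 and 1.24. Markers of several cell types changed with age too, with the values given further on, and their part in these ratios was not tested.

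Cd74 was lower at 2 years relative to a chain that it escorts, without overlap only in the counts before the length adjustment. The Cd74 to H2-Ab1 ratio was 3.28, 4.26, 4.43 and 4.31 at 12 weeks and 2.74, 1.82, 2.82 and 3.23 at 2 years, so all 4 old libraries lay below all young ones. The log2 difference was -0.64 (exact permutation p = 0.0286, adjusted 0.05). With the offset it was -0.57 and the groups overlapped (exact permutation p = 0.0571, adjusted 0.1). The H2-Aa to H2-Ab1 ratio, alpha over beta chain, overlapped between the ages (log2 difference 0.18, exact permutation p = 0.114, adjusted 0.133) and was at -0.02 with the offset. H2-DMa over H2-Oa, the exchanger relative to its inhibitor, differed by -1.23 (exact permutation p = 0.0571, adjusted 0.08) with overlapping groups. H2-DMb1 over H2-Ob differed by -0.15 (exact permutation p = 0.771, adjusted 0.771).

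**Figure D4:**
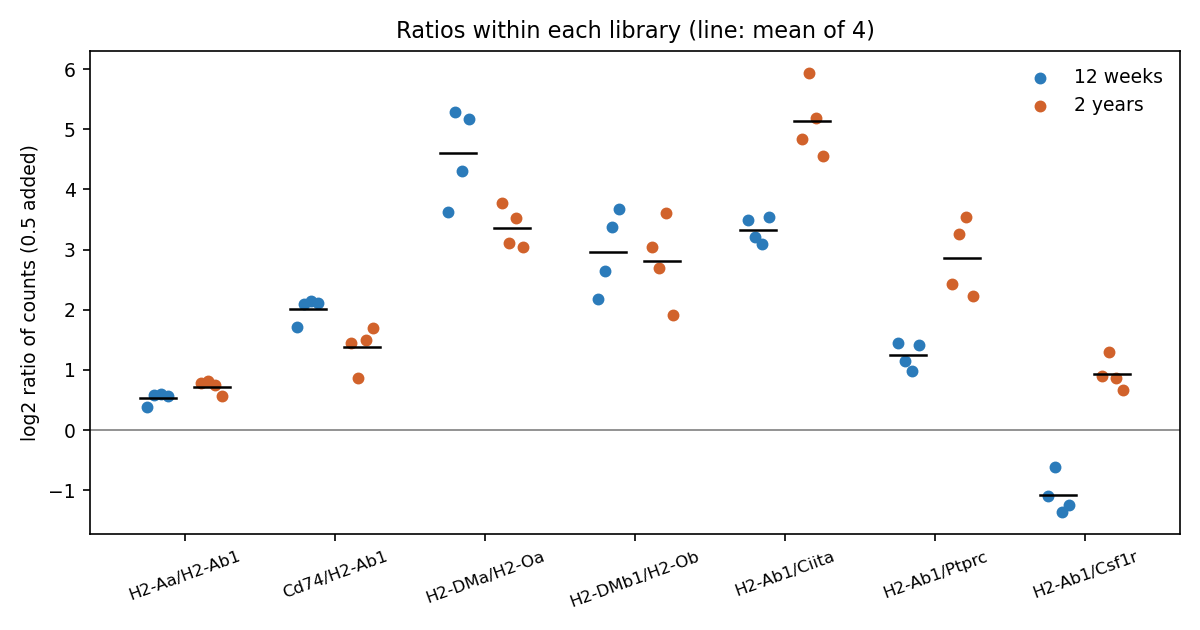
Log2 ratio of counts, with 0.5 added to each, for 7 gene pairs in every library; blue points are 12 weeks, orange points 2 years, and lines the group means. H2-Ab1 over Ciita, Ptprc and Csf1r is higher in all 4 old libraries and Cd74 over H2-Ab1 lower, while the other 3 pairs overlap between the ages.

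Of the DNA-binding factors that recruit Ciita none was called higher without the length term. Among the 7 listed genes of the RFX complex, NF-Y and CREB, 0 were called higher and 4 lower, with a median log2 fold change of -0.34. Over all genes tested, 25.8% were called higher and 26.2% lower. Rfx5, which binds the X box, fell from 31.2 to 18.6 CPM (-0.74 in log2, with an SE of 0.12 and adjusted p = 0.000442 by edgeR), and its partner Rfxank fell by 1.10 on the log2 scale. Of the NF-Y subunits Nfya fell by 0.64 and Nfyc by 0.34. Nfyc was no longer called without 12 weeks replicate 2, 3 or 4 or 2 years replicate 1 or 2 (adjusted p = 0.0694 to 0.113), with the replicate block (adjusted p = 0.0864) or with library totals in place of scaled sizes (adjusted p = 0.055). Length-adjusted, 1 factor was called higher, Creb1 at 0.31, and 5 lower, against 23.0% higher and 27.8% lower over all genes.

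Genes that prepare or turn over class II moved mostly with the members: 8 of 10 rose and 0 fell, with a median of 0.91. The shares over all genes tested were 25.8% higher and 26.2% lower. Ctss, the cathepsin that trims Cd74, rose 11.4-fold (log2 fold change 3.51, length-adjusted 2.86). Ifi30, a thiol reductase that opens disulfide bonds of antigens, rose by 1.70 on the log2 scale, and by 0.96 length-adjusted. Marchf1, a ubiquitin ligase that removes class II from the cell surface, rose by 2.04, and Cd83, which opposes Marchf1, by 1.87. The other listed genes of the class II region were sparse. H2-Eb2, a beta chain gene beside H2-Eb1, rose from 0.166 ± 0.0922 to 4.18 ± 2.76 CPM (4.61 in log2, with an SE of 0.64 and adjusted p = 0.000173 by edgeR). Btnl2, a butyrophilin-like gene of the region, was at 1.29 (edgeR adjusted p = 0.0336), a call lost with the offset (adjusted p = 0.0597) and without 12 weeks replicate 3 or 4 or 2 years replicate 1, 2 or 3.

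Interferon-gamma is the known inducer of Ciita. Of 7 tested genes of its pathway 3 rose and 0 fell, with a median of 0.54. Over all genes tested, 25.8% rose and 26.2% fell. The receptor chain Ifngr1 rose by 0.76 on the log2 scale, and Irf1, which acts on the Ciita promoter, by 0.54, a call lost with the offset (0.27, adjusted p = 0.121). Ifng itself, named after its counts were seen, was too sparse to test, with 1 count in all young libraries and 34 in all old ones.

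On the receiving side, all 9 tested genes of 11 listed for CD4 T cells rose, with a median of 2.61. Over all genes tested, 25.8% rose and 26.2% fell. Ctla4 and Cd40lg were too sparse to test. Foxp3, with 8 counts in all young libraries, passed the filter only through the old ones, so its place among the 9 depended on its old values. Cd3g and Cd3d, chains of the T cell receptor complex, rose by 3.30 and 3.95 on the log2 scale (Cd3g 2.48 length-adjusted), Cd3e by 2.36, and Cd5, a surface receptor of T cells, by 3.34. Of 7 tested costimulation genes 5 rose and 1 fell, with a median of 1.51. Cd86, Cd80 and Cd40, which presenting cells use to activate T cells, rose by 1.88, 1.51 and 1.84, and the inhibitory ligand Cd274 by 0.68. Icosl, the ligand of ICOS, fell by 0.56.

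The class I pathway, which presents peptides from inside the cell, rose too, with a smaller median. Of its 10 genes 9 were called higher and 0 lower, against 25.8% and 26.2% over all genes tested. The median was 1.74 against 3.10 for class II. Psmb8 and Psmb9, subunits of the immunoproteasome, rose by 2.93 and 2.58, the peptide transporter Tap1 by 2.36, and the heavy chain H2-K1 by 2.04. H2-K1 has near-identical relatives, so its counts are uncertain. The difference between the pathways was not tested.

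**Figure D5:**
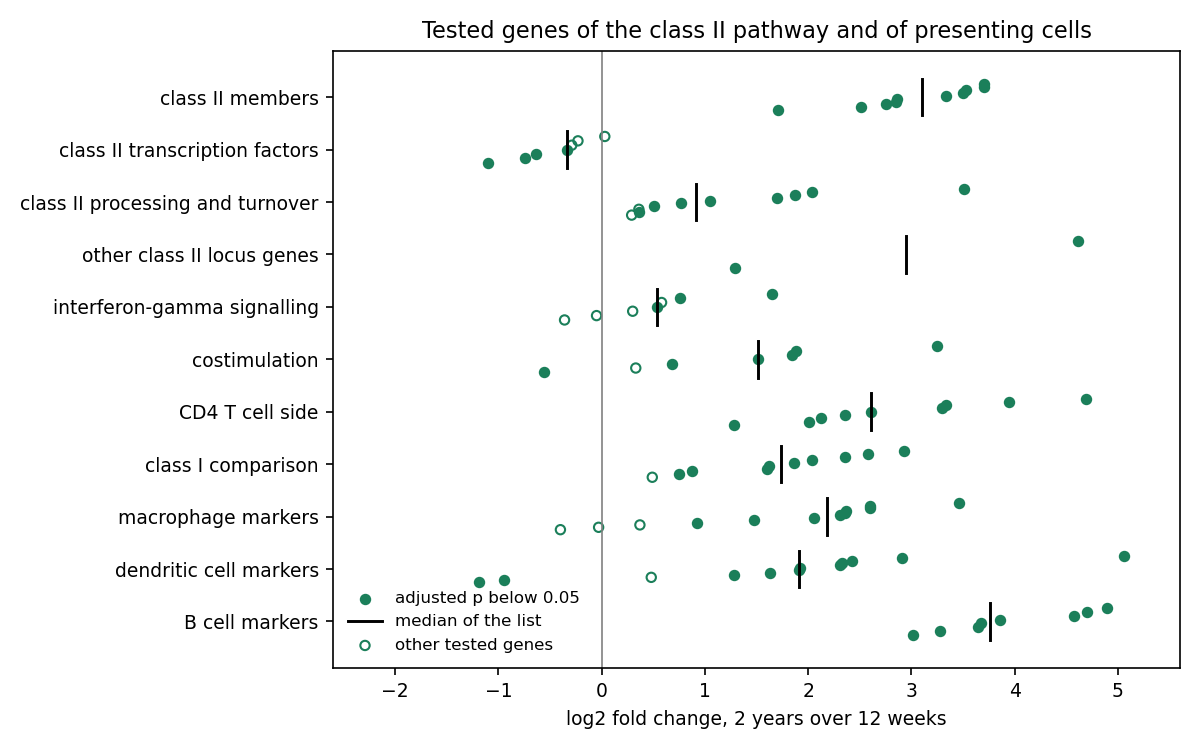
Log2 fold change, 2 years over 12 weeks, of every tested gene in 11 lists; filled points have an edgeR adjusted p below 0.05, open points do not, and black lines are list medians. The class II members lie from 1.71 to 3.70, the class II transcription factors from -1.10 to 0.03, and the B cell markers from 3.02 to 4.90.

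Most markers of the usual class II carriers moved with the members, beside shares of 25.8% higher and 26.2% lower over all genes tested. Of 12 macrophage markers 9 rose and 0 fell, with a median of 2.19, and their sum was 698 to 937 CPM at 12 weeks and 2262 to 2877 CPM at 2 years. Adgre1, Itgam, C1qa and Cd68 rose by 2.60, 2.37, 2.60 and 2.06 (Cd68 1.45 length-adjusted). Lyve1, Mertk and Cd163 were not called, at 0.37, -0.40 and -0.03. Without 2 years replicate 4, 1 macrophage marker was called lower. Of 12 dendritic cell markers 9 rose and 2 fell, with a sum of 54.8 to 74.6 and then 146.9 to 188.5 CPM. Ccr7, the receptor that takes mature dendritic cells to lymph nodes, rose by 5.06, Cd209a by 2.91 (2.31 length-adjusted), Itgax by 2.42 and Fscn1 by 1.91, while Zbtb46, which endothelium also expresses, fell by 0.95 and Siglech, of plasmacytoid cells, by 1.19.

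All 8 tested B cell markers of 10 listed rose, with a median of 3.76, against 25.8% higher over all genes tested. Cr2 and Fcer2a were too sparse to test. The sum of the 10 was 3.69 to 5.03 CPM at 12 weeks and 30.6 to 136.8 CPM at 2 years. Cd79b, Blk, Ms4a1 and Cd79a rose by 4.58, 3.02, 4.70 and 4.90, and the last 2 by 4.06 and 4.11 without 2 years replicate 4. No marker of these 3 lists was at 0 in all libraries of an age. The 6 plasma cell markers all rose, from a sum of 143.9 to 170.5 CPM to one of 492.6 to 1462.4 CPM, and Mzb1 was at 0 counts in all young libraries. The part of these cells in the rise of the class II genes was not tested.

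The counts of other markers stand beside shares of 25.8% higher and 26.2% lower over all genes tested. Of the cells of the wall itself, 0 of 8 smooth muscle markers rose and 5 fell, and their sum went from 28313 to 33941.1 CPM to 16510.7 to 25010.2 CPM. Endothelial markers had 0 higher and 1 lower of 8, but 4 lower without 12 weeks replicate 1, whose summed level was 387.4 CPM against 760.2 to 837.7 CPM in the other young libraries, 2 lower without 2 years replicate 4, and 1 higher without 12 weeks replicate 3. Fibroblast markers had 0 higher and 1 lower of 6, but 3 lower without 2 years replicate 3, whose sum was 7462.1 CPM against 3037.1 to 3892.9 CPM in the other old libraries. Red blood cell markers rose in 5 of 5 tested genes, but in 2 with both the replicate block and the offset, and epithelial markers in 2 of 5. Fat cell markers rose in 0 of 6, but in 3 without 12 weeks replicate 3, whose sum was 553.6 CPM against 103 to 192.5 CPM in the other young libraries, and in 3 with the replicate block. Of 6 tested heart muscle markers 3 fell, but 1 with the length and GC offset, 1 by limma voom and 2 without 12 weeks replicate 3. They summed to 1242.9 CPM in 12 weeks replicate 3 against 87 to 291.6 CPM elsewhere, and that library had the lowest young value for every member other than H2-Oa. The part of heart and fat tissue in these values was not tested. Without both replicates 3, all 10 members were still called higher.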

How the data were processed

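The deposited tables hold raw counts per gene symbol, per the labels, and the values were whole numbers with a different total in each library. Per the submitters' processing notes the build was GRCm39. Per the labels' protocols, total RNA was extracted with an RNeasy kit and read on a NovaSeq machine. The aligner, counter and annotation, and whether strand was used in counting, were not given in the sources used here.

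All 8 libraries, grouped by labelled age, were fitted with edgeR 4.0.16 in R 4.3.3 (filterByExpr, TMM scaling, robust quasi-likelihood test), with p-values adjusted by Benjamini-Hochberg over 13978 genes and calls at an adjusted p below 0.05. Log2 CPM used a prior count of 2, and ratios added 0.5 to each count. Alternatives were DESeq2 1.42.0, limma 3.58.1 voom, other scaling, no filter, a replicate block, single libraries left out, H2-DMb1 and H2-DMb2 summed, and an offset on transcript length and GC (natural splines, 4 degrees of freedom each). Lengths came from GENCODE M21 (GRCm38) by symbol for 97.9% of tested genes; the genes' exon overlaps and transcripts are from the same annotation. The pipeline was tested on simulated data. Library pairs within an age differed by 22.7 to 145.4 times counting noise (chi-square per degree of freedom), so none was a copy.

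The members and lists were chosen with earlier results of these data known. The text names all members, up to 4 called genes with the smallest p of each pathway list and of the macrophage, dendritic and B cell lists, Fbn1, and the 5 genes most alike within an age; other names were added after their values were seen. A gene taken by this rule is not reported here.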

Additional observations from a re-analysis of the deposited data

Results flagged for a closer look

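Groups of 4 libraries were checked for a value far from the other 3, with Dixon's ratio of the gap to the whole range above its critical value for 4 values. Of 34 groups examined, 3 passed, and chance alone passes about 1 in 20. All 3 concern 12 weeks replicate 1. H2-Oa was at 0.917 CPM there against 0.284 to 0.333 CPM in the other young libraries (ratio 0.864, taken on log2 CPM), and without that library its log2 fold change was 4.25 in place of 3.70. The log2 ratio of H2-Aa to H2-Ab1 was 0.39 against 0.57 to 0.60 (ratio 0.857). The log2 ratio of Cd74 to H2-Ab1 was 1.71 against 2.09 to 2.15 (ratio 0.876).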

How the results depend on the processing

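All 10 members kept their direction and an adjusted p below 0.05 in every one of the 18 alternatives run (9 of 9 with H2-DMb1 and H2-DMb2 summed); Ciita ranged from 1.58 to 2.16 and H2-Oa from 3.14 to 4.25. Genes called went from 6237 to 7689 against 7272, and calls in the 7 pathway lists from 37 to 44 against 41. With the length and GC offset the H2-Aa to H2-Ab1 difference became -0.02, Fbn1 0.16 and S100a4 -0.25; with the block and the offset Fbn1 was 0.16 and S100a4 -0.27. Why they turned was not tested. Same-numbered libraries correlated at r = -0.31, -0.12, 0.05 and 0.03 in their deviations from the age means. A low r cannot exclude pairing, and the labels do not say what the numbers stand for. With the replicate block 6432 genes, all 10 members and 39 list genes were called, and a sign-flip test of the ratios cannot go below 0.125. Leaving out 1 library moved the H2-DMb1 to H2-Ob difference between -0.42 and 0.15, and the exact test then cannot go below 0.0571. Depth limits H2-Oa most, at 7 to 21 counts per young library.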
